A study of Mus musculus with 22 samples.

Results

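Sites of C/EBP beta and CREB1 were examined at 10 regulator genes of the integrated stress response, Atf4, Atf3, Atf5, Ddit3, Chac1, Ddit4, Ppp1r15a, Sesn2, Vegfa and Nupr1, out of 21627 protein-coding genes. The genes were taken by name, with earlier results of these data known. Every peak inside a gene or at most 50000 bp from either of its ends was assigned to it. The peaks came from chromatin immunoprecipitation followed by sequencing (ChIP-seq) in mpkCCD (clone 11), a cultured line of mouse cortical collecting duct cells. Cells on permeable supports, moved to medium without serum and hormones, received 0.1 nM dDAVP, a vasopressin analog selective for the V2 receptor, or its vehicle, and were fixed after 30 min. C/EBP beta was precipitated from 2 dDAVP and 2 vehicle samples, and CREB1 from 4 dDAVP and 4 vehicle samples, with 10 input samples beside them. All groups share the line, a single clone, and carry no other treatment or allele.

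In the integrated stress response, kinases that sense amino acid shortage, unfolded protein in the endoplasmic reticulum or heme shortage phosphorylate the translation factor eIF2. General protein synthesis then falls while the mRNA of ATF4 is translated better. ATF4 is a leucine zipper factor that pairs with C/EBP proteins on composite C/EBP-ATF elements, and it raises the transcription of CHOP (gene Ddit3), ATF3, CHAC1 and other effectors. CREB1 binds the cAMP response element (CRE) as a dimer and is phosphorylated by protein kinase A, which vasopressin activates in the collecting duct.

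One peak list per antibody and treatment was deposited, so each statement below describes 1 list with no replicate spread, and no test of dDAVP against vehicle could be made. The C/EBP beta lists held 2401 peaks after dDAVP and 209 after vehicle, and the CREB1 lists held 406 after dDAVP and 785 after vehicle. The read depth behind them is unknown. A gene without a peak in a list is therefore a gene where none was called, and longer lists reach more genes. The peak lists give no expression values, so the line was not checked against collecting duct markers.

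The sequences under the peaks at or just before gene starts are given first. They show where the sites lie relative to C/EBP-ATF and CRE letters. RefSeq promoter windows (GRCm38.p6, which is mm10) run from 250 bases before the start of a gene to 50 after it, and all 10 genes had at least 1 window, 12 in all. Windows of 5 genes were reached by a peak. The stretches below are the bases before the start that lay in a peak, on the strand of the gene, with capitals for motif matches. Positions count along the gene, with the first base of the gene at 0.

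At Chac1 the stretch lay in the C/EBP beta dDAVP peak (chr2:119350992-119351241, plus strand). The capitals mark a CRE core at -250 to -246 and a composite C/EBP-ATF match at -194 to -186.
Chac1: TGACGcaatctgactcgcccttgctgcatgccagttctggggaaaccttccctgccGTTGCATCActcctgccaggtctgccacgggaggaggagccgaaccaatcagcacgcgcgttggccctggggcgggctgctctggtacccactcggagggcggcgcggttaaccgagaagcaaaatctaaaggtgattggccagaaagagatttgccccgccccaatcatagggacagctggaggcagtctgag

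At Atf3 the whole window lay in the C/EBP beta dDAVP peak (chr1:191183334-191183583, minus strand). The capitals mark a composite match at -111 to -103 and a CRE core at -7 to -3.
Atf3: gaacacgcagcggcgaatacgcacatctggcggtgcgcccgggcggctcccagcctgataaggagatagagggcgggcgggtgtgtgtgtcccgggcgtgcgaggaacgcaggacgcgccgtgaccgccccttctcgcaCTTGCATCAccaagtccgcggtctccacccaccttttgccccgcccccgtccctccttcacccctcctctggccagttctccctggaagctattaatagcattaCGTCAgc

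At Ddit3 the near part of the C/EBP beta dDAVP peak was covered (chr10:127290543-127290652, plus strand), 110 of its 300 bases, and it held no match to any of the motifs searched.
Ddit3: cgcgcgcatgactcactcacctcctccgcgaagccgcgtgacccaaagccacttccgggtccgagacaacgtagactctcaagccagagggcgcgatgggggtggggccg

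At Atf4 the stretch lay in the CREB1 vehicle peak (chr15:80255009-80255183, plus strand). The capitals mark a CRE core at -12 to -8.
Atf4: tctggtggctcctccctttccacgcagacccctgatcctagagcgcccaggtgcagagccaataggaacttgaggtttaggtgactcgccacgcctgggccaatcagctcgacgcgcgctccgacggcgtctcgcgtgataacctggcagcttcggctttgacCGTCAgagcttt

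At Ppp1r15a the stretch lay in the CREB1 dDAVP peak (chr7:45526269-45526379, minus strand). The capitals mark the full palindromic CRE at -12 to -5.
Ppp1r15a: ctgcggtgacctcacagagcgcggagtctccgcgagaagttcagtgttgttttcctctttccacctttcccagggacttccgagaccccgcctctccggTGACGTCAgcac

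The motifs were exact letters searched on both strands of the whole windows. They were the full CRE, TGACGTCA, its core, TGACG, which lies inside the full CRE, the composite TGATGNAAN, the C/EBP palindrome TTGCGCAA and its looser form TTGCNNAA, which contains the palindrome. Of the 21044 windows of protein-coding genes, 2.26% held the full CRE, 23.8% the core, 3.43% the composite, 0.223% the C/EBP palindrome and 10.3% the looser form. The windows of Atf3, Chac1 and Nupr1 held the composite, and those 3 matches shared the letters TGATGCAA, which 0.851% of all windows held. That shorter form was searched after the matches had been seen. Ppp1r15a had the only full CRE among the 12 windows. None of the 12 windows held either C/EBP form. A match is a description of the letters and not evidence of binding, and the parts of the peaks outside the windows were not searched.

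Most of the stress regulators had a C/EBP beta site nearby in cells given dDAVP. Of the 10 genes, 8 had such a peak within 50000 bp (80.0%), against 19.6% of all protein-coding genes. The 10 genes were chosen with earlier results of these data known, so this difference is a description only. After vehicle 2 of the 10 had a C/EBP beta peak (20.0%), Chac1 and Ddit3, against 2.04% of all genes. The median distance from the 10 genes to the nearest C/EBP beta dDAVP peak was 2934.5 bp, against 272275 bp for all genes. In the vehicle list it was 5675779.5 bp, against 4164236 bp for all genes. At most 5000 bp away, 6 of the 10 had a C/EBP beta peak after dDAVP, against 7.88% of all genes, and 2 of the 10 after vehicle, against 0.786%. The 2 genes without a C/EBP beta peak in either treatment were Ppp1r15a and Nupr1, whose nearest dDAVP peaks lay 88224 bp and 119479 bp away. The farthest gene inside the distance rule was Vegfa, at 41561 bp.

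CREB1 peaks were near 1 of the 10 genes in each treatment. After dDAVP this was Ppp1r15a (10.0%, against 6.98% of all genes), and after vehicle it was Atf4 (10.0%, against 12.6% of all genes). Both shares lay near those of all genes, so the count of genes says nothing particular about this group for CREB1. The same 2 peaks lay at the gene itself, so the counts were also 1 of 10 within 5000 bp, against 2.74% of all genes after dDAVP and 5.20% after vehicle. The nearest CREB1 peaks outside the distance rule lay 62368 bp from Chac1, in the vehicle list, and 69991 bp and 69943 bp from Ddit4 in the dDAVP and vehicle lists. No C/EBP beta peak near these genes overlapped a CREB1 peak of the same treatment. That overlap was not counted for the whole lists, so its absence cannot be read as particular to these genes. Atf4 had peaks of both antibodies, in different treatments.

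**Figure D1:**
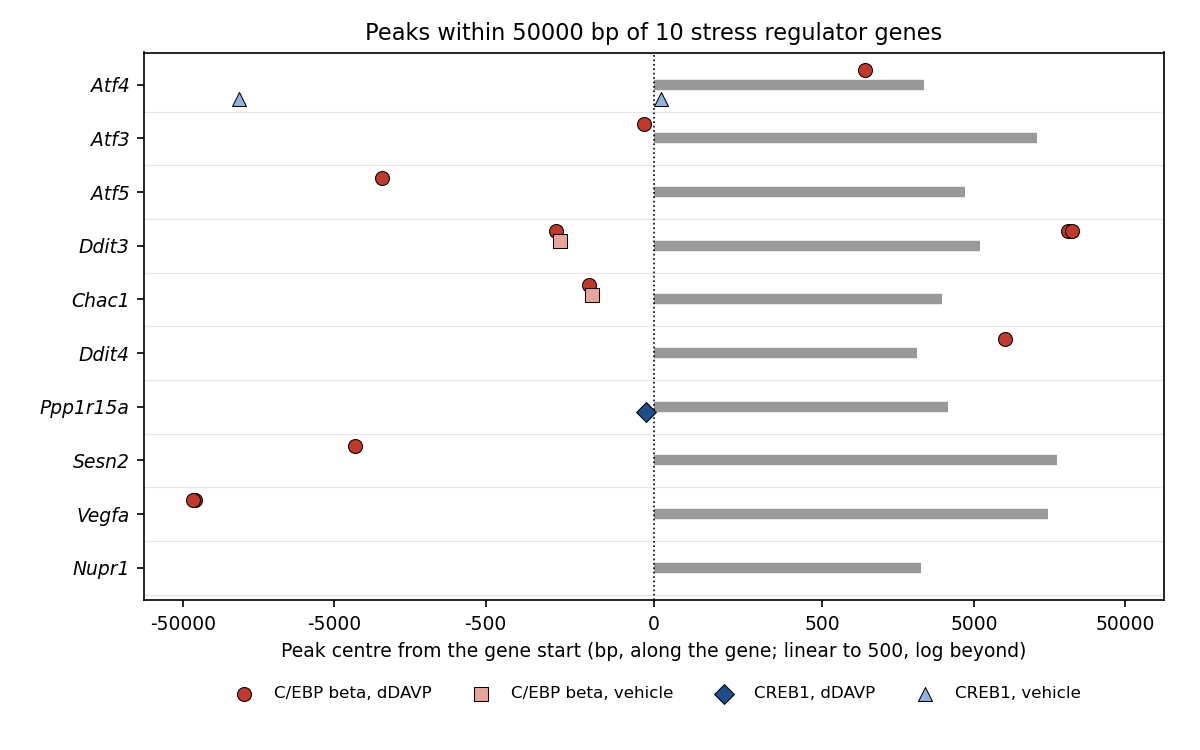
Centres of all peaks within 50000 bp of the 10 genes, by their distance in bp from the gene start along the gene (linear to 500 bp, log scale beyond), 1 marker per peak and 1 shape per list, with the gene as a grey bar. Red circles, the C/EBP beta dDAVP peaks, appear in 8 rows, the paler squares of the vehicle list at Ddit3 and Chac1, CREB1 at Atf4 and Ppp1r15a, and the Nupr1 row is empty.

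In all, 11 C/EBP beta peaks after dDAVP lay near the 10 genes, against 2 after vehicle. Both vehicle peaks overlapped a dDAVP peak, so 2 of the 11 dDAVP peaks (18.2%) were in both lists, against 8.70% of the whole dDAVP list. The score that the authors deposited with each C/EBP beta peak was used to place peaks within their list. The 11 dDAVP peaks had scores of 84 to 991 with a median of 304, against a median of 197 for all 2401. Of these 11 peaks, 4 were centred within 1000 bp of the start of their gene. In the whole dDAVP list 17.1% of the peaks on chromosomes with promoter windows were centred within 1000 bp of any protein-coding start. That value counts starts of all genes, and the whole list was not limited to peaks within 50000 bp of a gene. The count for the 11 peaks and this share are therefore not like for like.

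**Figure D2:**
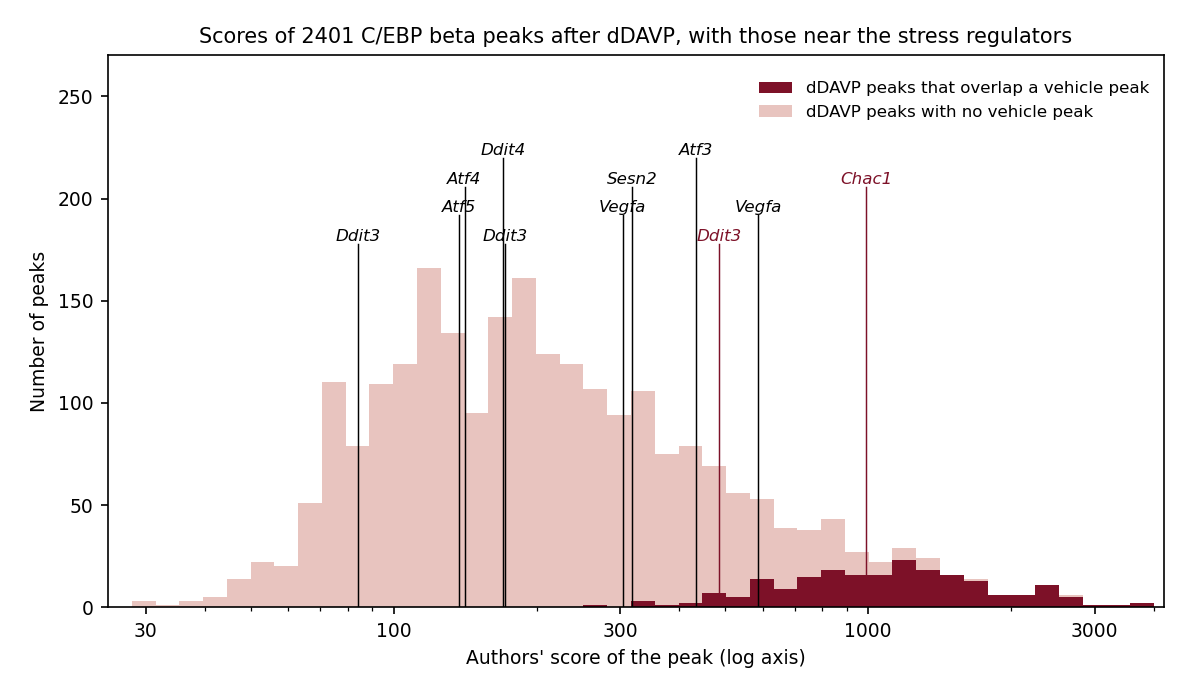
Number of C/EBP beta dDAVP peaks by the authors' score (log axis), stacked by whether they overlap a vehicle peak, with a vertical line at each of the 11 peaks near a stress regulator. Chac1 at 991 and Ddit3 at 485 are the lines for peaks that were also in the vehicle list.

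Among the 10 stress regulators, Chac1 had the best-scoring site. Chac1 encodes a glutathione-degrading enzyme induced in stress (gene at chr2:119351242-119354326, plus strand). After dDAVP a C/EBP beta peak of 393 bp ran from position -390 to position 2, with a score of 991 that ranked it 140 of 2401. After vehicle a peak of 217 bp ran from -293 to -77, with a score of 95 that ranked it 158 of 209. The vehicle peak lay wholly inside the dDAVP peak, as did all 209 vehicle peaks, and the centres were at -194 after dDAVP and -185 after vehicle. Both centres thus fell in or next to the composite match at -194 to -186. Of the 100 dDAVP peaks closest in score, 63 were also in the vehicle list. Scores were not compared between lists, because their scale is not stated.

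Ddit3, which encodes the pro-apoptotic C/EBP family member CHOP, had the largest number of peaks (gene at chr10:127290793-127296291, plus strand). After dDAVP a C/EBP beta peak of 300 bp ran from -440 to -141, with a score of 485 and rank 412 of 2401. After vehicle a peak of 144 bp ran from -349 to -206, with a score of 73 and rank 191 of 209. The vehicle peak again lay inside the dDAVP peak. Few sites of similar score were in both lists: of the 100 dDAVP peaks closest in score, 9 overlapped a vehicle peak, and 199 of the 209 dDAVP peaks shared with vehicle scored at least as high. The shared site also overlapped the neighbouring gene Mbd6, so the gene it serves cannot be read from its position.

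The other peaks assigned to Ddit3 lay beyond the far end of the gene and were in the dDAVP list without a vehicle peak. One of 308 bp was centred 20903 bp past the start, with a score of 172, and one of 190 bp was centred 22207 bp past it, with a score of 84. They stood 1055 bp apart, and the gene nearest to both was Mars1, the methionyl-tRNA synthetase. The first overlapped Mars1 itself and the second lay 1120 bp from it.

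Ddit4, Sesn2 and Vegfa had C/EBP beta peaks in the dDAVP list alone, all away from their starts. Ddit4 encodes REDD1, an inhibitor of the growth kinase complex mTORC1 (chr10:59949675-59951770, minus strand). Its peak of 293 bp scored 170, rank 1351 of 2401, and was centred 7989 bp past the start, with its near edge 5748 bp beyond the far end of the gene. Sesn2 encodes sestrin 2, a leucine sensor that also restrains mTORC1 (chr4:132492804-132510456, minus strand). Its peak of 176 bp was centred at -3644, before the start, and scored 318, rank 699 of 2401. Of the 100 dDAVP peaks closest in score, 0 for the Ddit4 peak and 1 for the Sesn2 peak were in the vehicle list.

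Vegfa, the gene of an angiogenic growth factor, had the highest-scoring peak among those absent after vehicle (chr17:46016993-46032377, minus strand). That peak of 321 bp was centred at -41721, with a score of 587 and rank 316 of 2401. Among the 2192 dDAVP peaks without a vehicle peak, 5.98% scored as high or higher. A further peak of 303 bp lay 845 bp farther out, with a score of 304 and rank 751. These peaks lay 41561 bp and 42727 bp from Vegfa, and 36746 bp and 35598 bp from Mrps18a, a mitochondrial ribosomal protein gene and the nearest protein-coding gene to either. The assignment of these peaks to Vegfa rests on the distance rule.

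Of the leucine zipper factors Atf3, Atf4 and Atf5, all had a C/EBP beta dDAVP peak within 50000 bp, and only Atf4 had CREB1 peaks. Atf3 encodes a stress-induced factor of the ATF family that can act as a repressor (chr1:191170296-191183333, minus strand). After dDAVP a C/EBP beta peak spanned its start from -292 to 230. With 523 bp it was the widest peak near these genes, and its score of 434 ranked it 494 of 2401. The composite match at -111 to -103 lay inside it, and its centre was at -31. Among the dDAVP peaks without a vehicle peak 13.3% scored as high or higher, and 3 of the 100 closest in score were in the vehicle list.

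Atf4, the central factor of the response, was the one gene with peaks of both antibodies (chr15:80255184-80257545, plus strand). After dDAVP a C/EBP beta peak of 196 bp lay inside the gene, from 861 to 1056, with a score of 141 that ranked it 1566 of 2401. After vehicle a CREB1 peak of 395 bp spanned the start from -175 to 219, and the dDAVP list held no CREB1 peak within 567099 bp of the gene. Most peaks of that width were in both CREB1 lists: of the 110 vehicle peaks at least 395 bp wide, 102 (92.7%) overlapped a dDAVP peak and 8 did not. In width the Atf4 peak ranked 109 of 785. A narrower CREB1 vehicle peak of 212 bp, 21055 bp from Atf4, overlapped Mief1, a gene of mitochondrial dynamics, and it too was absent from the dDAVP list. Such absence was common: of all 785 CREB1 vehicle peaks, 388 did not overlap a dDAVP peak. Of the 100 vehicle peaks closest in width to the peak at Mief1, 8 overlapped a dDAVP peak.

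Atf5 encodes another ATF factor of the response, under translational control like Atf4 (chr7:44812256-44816658, minus strand). Its single site was a C/EBP beta dDAVP peak of 242 bp centred at -2432, before the start, with a score of 137 that ranked it 1590 of 2401. The peak overlapped the neighbouring gene Il4i1b. Neither of the Atf5 start windows was reached by a peak or held a match to a motif.

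Ppp1r15a encodes GADD34, the phosphatase subunit that returns eIF2 to its unphosphorylated state (chr7:45522917-45526268, minus strand). A CREB1 peak of 175 bp spanned its start from -111 to 63 in the dDAVP list, with its centre at -24, and the full CRE at -12 to -5 lay inside it. The nearest CREB1 vehicle peak was 191571 bp away. Of the 406 CREB1 dDAVP peaks, 8 had no vehicle peak, and this was among them. It was narrow, ranking 360 of 406 in width, but 89 of the 95 dDAVP peaks closest in width (93.7%) did overlap a vehicle peak. The same peak lay wholly in the promoter window of Plekha4, whose start faces the other way, so its assignment to Ppp1r15a is shared with that gene. The pattern of a CREB1 peak after dDAVP and none in the other lists within 50000 bp was seen at 14 genes (0.0647% of all). Neighbouring genes can share it through the same peak: 7 protein-coding genes, Ppp1r15a among them, lay within 50000 bp of this peak.

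**Figure D3:**
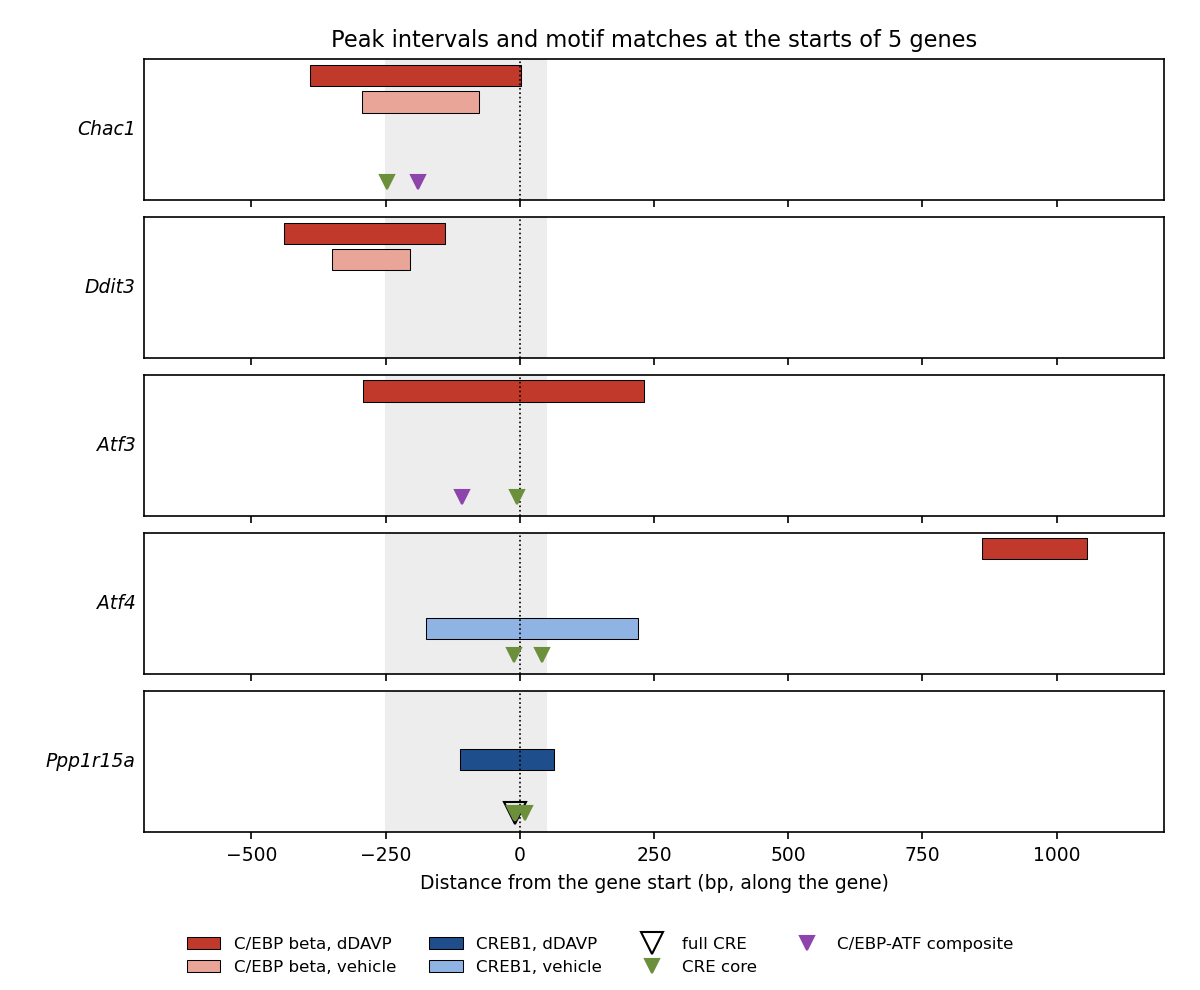
Peak intervals, in bp from the gene start, at the 5 genes whose promoter window was reached by a peak. There is 1 coloured bar per list, with the promoter window searched for motifs in grey and triangles at motif matches. The bars of the dDAVP and vehicle C/EBP beta lists are nested at Chac1 and Ddit3, and the composite match at Chac1 lies under the middle of both.

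Nupr1, which encodes a small stress-induced nuclear protein, had no peak in any list within 50000 bp (chr7:126623246-126625470, minus strand). The nearest CREB1 peaks were 8090048 bp away after dDAVP and 6305481 bp away after vehicle. Its window held a composite match at -111 to -103, the same positions as at Atf3, where a C/EBP beta peak was called. In all, 15597 genes (72.1%) had no peak in any of the 4 lists by the same rule.

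The windows under peaks were then set beside all windows. The composite was in 8.11% of the 296 windows reached by a C/EBP beta dDAVP peak and in 12.8% of the 39 reached by a vehicle peak, against 3.43% of all windows. The C/EBP forms that the member windows lacked were commoner there. The looser form TTGCNNAA was in 36.5% of the windows under a dDAVP peak and 61.5% of those under a vehicle peak, against 10.3% of all, and the palindrome TTGCGCAA was in 7.43% and 33.3%, against 0.223%. For the letters TGATGCAA these shares were 5.07% and 12.8%, against 0.851%. The full CRE was in 27.6% of the 402 windows reached by a CREB1 dDAVP peak and in 23.5% of the 779 reached by a CREB1 vehicle peak, against 2.26% of all. The CRE core was in 90.0% and 85.5% of these windows, against 23.8% of all, and the windows of Ppp1r15a and Atf4 held it. Among windows reached by a C/EBP beta peak the core was in 42.2% after dDAVP and 30.8% after vehicle. The windows of Chac1 and Atf3 held it and that of Ddit3 did not. Most C/EBP beta windows thus lacked the composite, as the Ddit3 window did. That window held 110 of the 300 bases of the Ddit3 dDAVP peak, and the rest of the peak was not searched. Ppp1r15a belonged to the smaller part of CREB1 windows with a full CRE.

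The genes most like the members in their sites were found by the presence or absence of a peak within 50000 bp in the 4 lists and then by distance. Chac1 and Ddit3 shared their pattern, C/EBP beta in both treatments and no CREB1, with 348 genes in all (1.61%). Nearest to Chac1 were Dcaf6, with peaks 0 bp from the gene after dDAVP and 65 bp after vehicle, and Stau2, with 0 bp and 93 bp. Their summed differences in log10 distance were 0.07 and 0.08 over 2 lists. Nearest to Ddit3 were Ttc21b, with 129 bp after dDAVP and 193 bp after vehicle (0.07), and 1110002E22Rik, with 252 bp and 338 bp (0.47). For Atf4 the smallest difference was 0, shared by 32 genes with both peaks overlapping the gene, Aasdhppt and Atg16l1 among them by alphabetical order.

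Other genes of the response were counted by the same 50000 bp rule. C/EBP beta dDAVP peaks were near 14 of 20 cytosolic aminoacyl-tRNA synthetase genes, 9 of 16 genes of ER chaperones and ER degradation and 14 of 26 other effectors downstream of ATF4 or CHOP. They were near 7 of 14 genes of eIF2 kinases, eIF2 and eIF2B, 11 of 26 leucine zipper partners and relatives, and 5 of 13 genes of serine, proline and asparagine synthesis. The share was 80.0% for the 10 stress regulators, against 38.5% to 70.0% for these lists and 19.6% for all genes. At most 1000 bp away the order differed: 40.0% of stress regulators had a peak, against 55.0% of synthetase genes and 46.2% of other effectors. The remaining lists then had 14.3% to 38.5%, and all genes 6.40%. The stress regulators and these lists were chosen with earlier results known, and whether they differ was not tested.

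After vehicle the C/EBP beta counts were 4 of 20, 2 of 16, 3 of 26, 2 of 14, 2 of 26 and 1 of 13 in the same order of lists, and 2 of 10 for the stress regulators, against 2.04% of all genes. Within the synthetase list Aars had peaks overlapping the gene in both treatments, with scores of 964 after dDAVP and 118 after vehicle, and so did Iars, with 1138 and 84. Among effectors Ndrg1, a stress-induced gene, scored 1994 after dDAVP and 321 after vehicle. Herpud1, a component of ER degradation, scored 699 and 95, and Fosl2, an AP-1 factor, scored 1666 and 182. The transaminase gene Got1 scored 1313 and 141. Chac1, with 991 and 95, lay among these values and Ddit3, with 485 and 73, below them. Other list genes with C/EBP beta peaks in both treatments fell outside the naming rule, so these places hold for the named genes only. Ppp1r15b, the constitutive counterpart of Ppp1r15a, had a C/EBP beta peak overlapping the gene after dDAVP, with a score of 460 and none within 5000 bp after vehicle.

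CREB1 peaks were near 1 of 10 stress regulators in each treatment, against 4 of 16 ER chaperone and degradation genes after dDAVP and 8 of 16 after vehicle. Of all protein-coding genes, 6.98% had a CREB1 peak within 50000 bp after dDAVP and 12.6% after vehicle. For eIF2 kinases, eIF2 and eIF2B the counts were 2 of 14 after dDAVP and 6 of 14 after vehicle. Eif2ak3, the gene of the ER stress kinase PERK, had a CREB1 peak at the gene after vehicle and none within 5000 bp after dDAVP. Eif2b1, a subunit of the eIF2 exchange factor, had one in both treatments. The leucine zipper list had 3 of 26 after dDAVP and 8 of 26 after vehicle. The other lists had 2 and 3 of 26 effectors, 3 and 3 of 13 synthesis genes and 3 and 4 of 20 synthetase genes after dDAVP and vehicle. None of these differences was tested.

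**Figure D4:**
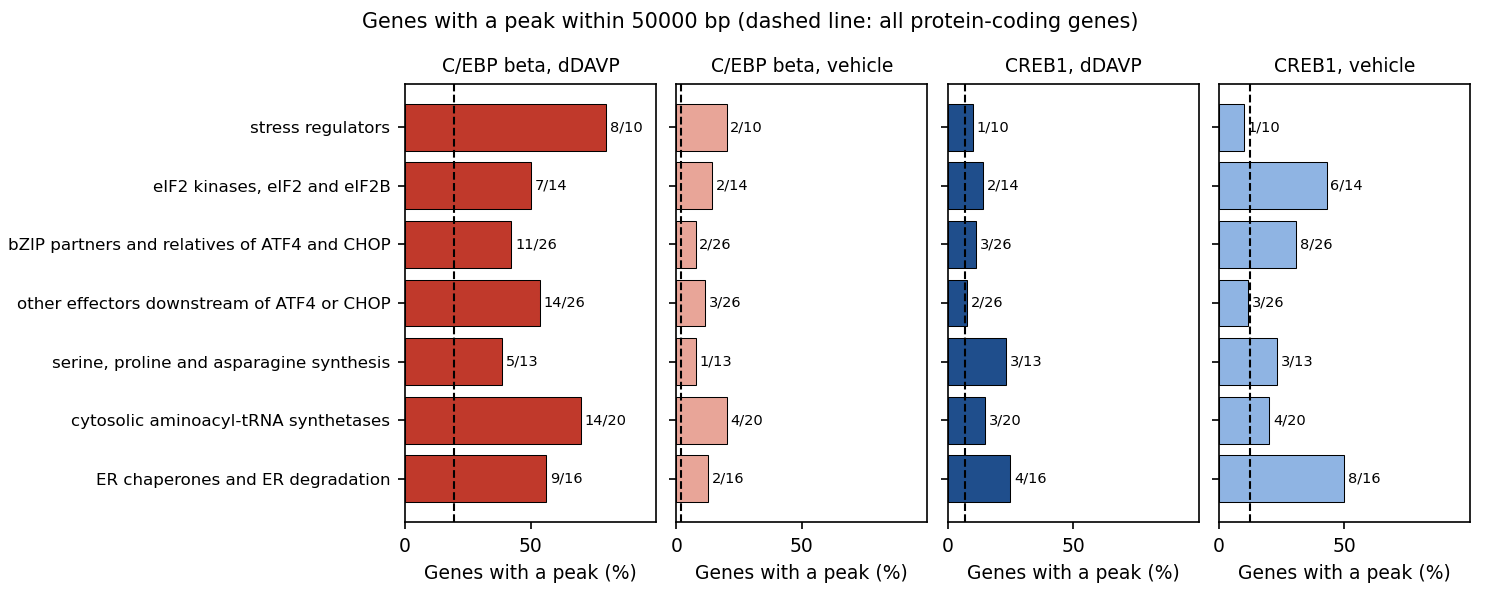
Percentage of genes with a peak within 50000 bp in each gene list, 1 panel per antibody and treatment, with the number of genes beside each bar and a dashed line at the share of all protein-coding genes. At this distance the stress regulators have the longest C/EBP beta dDAVP bar, 8 of 10, and CREB1 bars of 1 of 10 near the dashed line.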

How the data were processed

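Peak lists were deposited for each antibody and treatment, 4 in all. BWA, SAMtools, MACS2, bedtools and mm10 are named in the submitters' processing notes, without roles or versions. Whether and how replicates were combined is not given in the sources used here. For CREB1 the authors deposited positions only. For C/EBP beta they also deposited a score per peak, with no stated scale, and peak names of replicate 1 with the settings bw300, dup1 and q0.01. Whether each C/EBP beta list draws on 1 sample or on both is therefore unknown.

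Computed here, with Python 3.11.15, pandas 2.3.3 and numpy 2.4.6, were distances, overlaps of at least 1 bp, ranks and exact motif matches. Distances and overlaps were tested on simulated intervals. Genes and starts came from RefSeq tables of GRCm38.p6, and all 125 list entries were found. The tables give no exons, so sites inside genes are not divided further. Peaks on unplaced contigs entered no gene analysis. Whether samples came from separate cultures is not stated beyond an experiment number. No test was made: members and lists were chosen with earlier results of these data known, and counts are read against the share of all protein-coding genes. Named genes were the members, the nearest gene of each of their peaks and the genes most alike in pattern. Up to 6 genes per other list and antibody within 5000 bp were also named, the closest first and ties in alphabetical order. A motif form chosen after seeing the matches is named as such. Alternatives covered distance, overlap, score, width and nearest gene.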

Additional observations from a re-analysis of the deposited data

How the results depend on the processing

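The count of stress regulators with a C/EBP beta dDAVP peak, 8 of 10 by the main rule, was 4 at 1000 bp, 5 when the member had to be the nearest protein-coding gene and 5 in the upper 50% of scores. It was 1 (Chac1) when only the 209 best-scoring dDAVP peaks were kept, the length of the vehicle list. The shares of all genes were then 6.40% at 1000 bp, 10.9% in the upper 50% and 2.21% in the 209 best. No share of all genes was computed for the nearest-gene rule, so counts by that rule have no background. At 5000, 10000 and 100000 bp the count was 6, 7 and 9, against 7.88%, 9.32% and 29.5% of all genes. The vehicle count of 2 was 1 by nearest gene and 0 in the upper 50% of scores, against 0.957% of all genes. The CREB1 counts of 1 after dDAVP and 1 after vehicle were 2 and 3 at 100000 bp, against 10.4% and 18.0% of all genes, and the dDAVP count was 0 in the upper 50% by width, against 3.69%. With those 209 peaks 1 C/EBP beta site remained shared between treatments, in place of 2. A requirement of 50% overlap, or of centres at most 250 bp apart, left the 2 shared sites and the 0 shared CREB1 sites as they were. The settings differed in the peaks kept, the distance, the overlap required or the rule of assignment, and why the counts moved was not tested.

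No paired analysis was possible because each group has a single list, and for that reason no replicate was left out. The read depth is unknown, and a site missing from the shorter list of an antibody cannot be told apart from one that was not detected.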

Other observations

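Several peaks near the stress regulators also stood at the starts of other genes. The CREB1 vehicle peak assigned to Atf4 at 21055 bp lay with all of its 212 bases in the promoter window of Mief1. The C/EBP beta dDAVP peak 15252 bp from Ddit3 shared 114 bases with the window of Mars1. The CREB1 dDAVP peak at Ppp1r15a shared 161 bases with that gene's window and all 175 with the window of Plekha4. By the nearest protein-coding gene, 5 of the 11 C/EBP beta dDAVP peaks belonged to the stress regulator they were assigned to, as did 1 of 2 C/EBP beta vehicle peaks, the CREB1 dDAVP peak and 1 of 2 CREB1 vehicle peaks. The same count was not made for other genes.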
